A study of Homo sapiens with 36 samples.

Results

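The 9 genes described here are VIM, CD44, FN1, ZEB1, SNAI2, SPARC, MMP14, TIMP1 and ITGB1, a set of mesenchymal and matrix invasion genes taken by symbol from a list. All 9 symbols were found among the 26485 in each of the 36 count files. The human breast cancer line MDA-MB-231, which is triple-negative and mesenchymal in appearance, was grown in dishes. The labels describe it as a xenograft cell line. Each of 4 lines carried a CRISPR interference construct and an overexpression construct. Control cells had interference against eGFP with a control overexpression construct. UAU cells had the eGFP construct with overexpression of the isoleucine tRNA of anticodon UAU. GAUi cells had interference against the isoleucine tRNA of anticodon GAU with the control overexpression construct. Isoswitch cells had both the GAU interference and the UAU overexpression.

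All lines, control included, thus carried both kinds of construct, and all were treated with 100 ug/mL cycloheximide, which stalls ribosomes on mRNA, for 5 min before freezing. From each line, total RNA, a low fraction (monosomes with the first polysome peak) and a high fraction (heavier polysomes) were sequenced in 3 replicates, A, B and C. The libraries read the 3' ends of polyadenylated RNA, so the tRNAs themselves were not measured. Whether a line is a clone or a pool, and whether replicates were separate cultures, is not given in the sources used here, so a p-value reflects only how these samples vary, which may be technical.

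VIM encodes vimentin, the intermediate filament protein of mesenchymal cells, and CD44 a cell surface receptor for hyaluronan. Both belong to the genes that mark the epithelial-mesenchymal transition, in which carcinoma cells lose cadherin junctions and gain motility. ZEB1 and SNAI2 (Slug) are transcription factors that repress epithelial genes in that transition. FN1 encodes the matrix protein fibronectin and SPARC a matrix-associated glycoprotein. MMP14 is a membrane-bound matrix metalloproteinase, TIMP1 an inhibitor of metalloproteinases, and ITGB1 the integrin beta 1 subunit, through which cells bind fibronectin and other matrix proteins. An mRNA under active translation usually carries several ribosomes and sediments with heavy polysomes.

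Total counts per library were 6679340 to 8973050 for total RNA. The low fraction had 5310594 to 8234332, and the high fraction 5192464 to 8974001. Replicate A of GAUi total RNA and replicate B of the control low fraction stood apart from the other replicates of their groups. Where leaving one of them out added or ended a call among the 9 genes, or moved a called value by over 1.5 times, the value without it is given. Replicate C of the UAU high fraction also stood apart, by smaller differences in counts. Epithelial genes were mixed. CDH1, the E-cadherin gene, had 0 to 3 counts per library and none in 28 of the 36, and GRHL2 had at most 2, while EPCAM had 37 to 241 counts (6.13 to 27.5 CPM, reads of a gene scaled by the size of its library) and ESRP2 29 to 169 counts. The oestrogen receptor gene ESR1 had at most 2 counts and PGR at most 6, while ERBB2 had 7.53 to 20.2 CPM. Over all libraries the 26 epithelial markers summed to 349 to 836 CPM, much of it KRT18 (85.1 to 386 CPM). Markers of other cell types were low: leukocyte markers summed to 4.89 to 18.99 CPM, endothelial to 4.42 to 12 CPM and fibroblast to 0.545 to 5.92 CPM, with CDH5 at 0 in every library and COL3A1 and DCN at 1 count at most.

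Of the 9 genes, 8 had enough counts to be tested. SPARC had 0 to 7 counts in every library, at most 0.961 CPM, and none in 3 of the 36, so it was not tested. Its counts in total RNA were 1, 2 and 0 in control, 3, 4 and 7 in UAU, 5, 7 and 2 in GAUi and 5, 6 and 3 in isoswitch cells, too few to give a fold. In total RNA, VIM lay between 2749 and 3720 CPM over the 12 libraries, with 19259 counts or more in each. The lowest counts among the tested genes were those of MMP14, with 62 to 290 per library, and SNAI2, with 63 to 161. CPM follow the number of 3' ends and were not compared between genes.

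**Figure D1:**
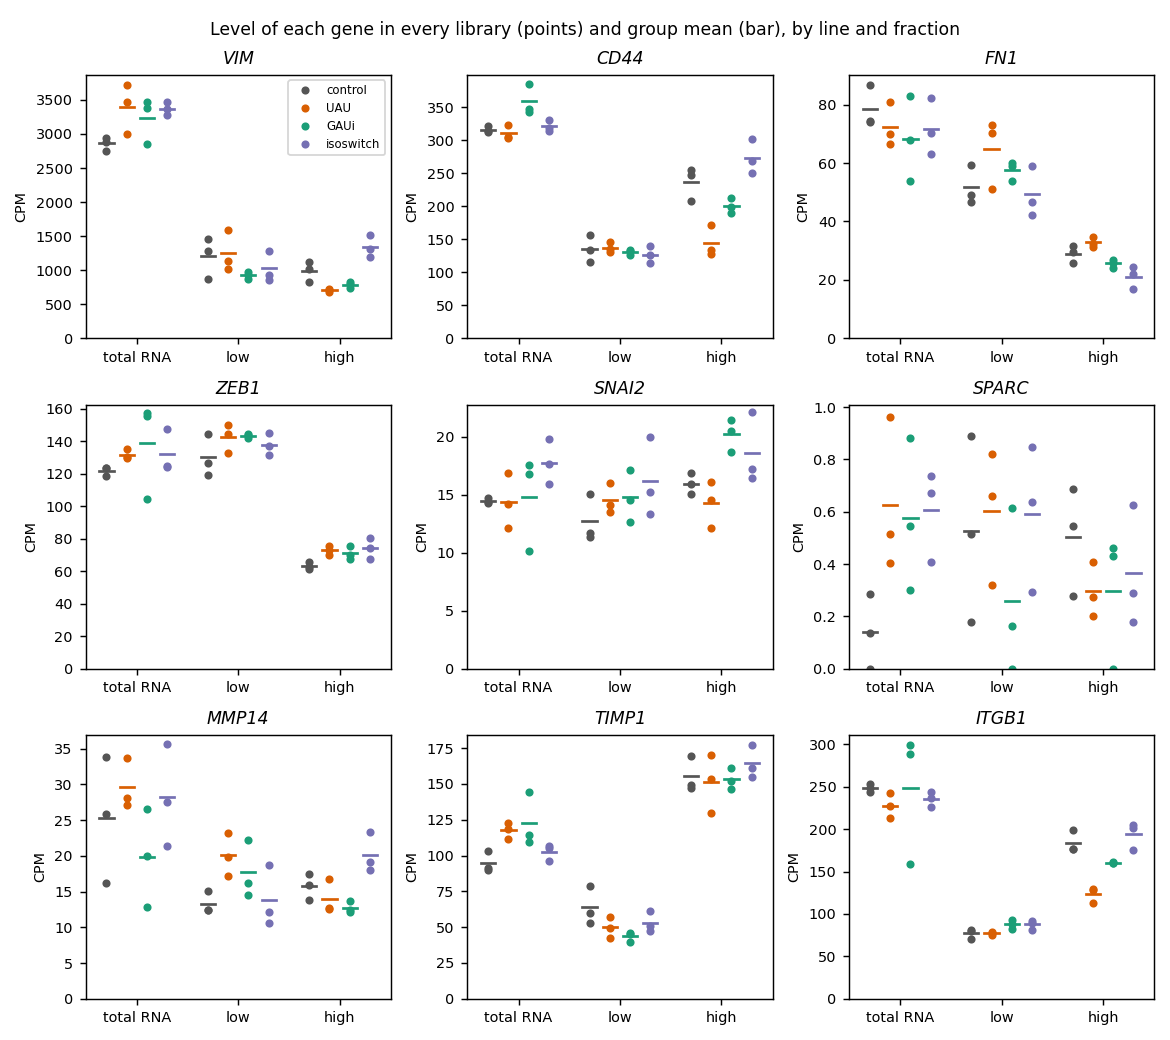
Level in CPM (vertical axis, linear, from 0) of each of the 9 genes in all 36 libraries. Points are libraries coloured by line, short bars are means of 3 libraries, and the 3 blocks on the horizontal axis are total RNA, low fraction and high fraction. In the high fraction the 3 CD44 values of UAU cells (127 to 172.1 CPM) lie below all control values (207.2 to 254.9 CPM), while in total RNA CD44 was 304.8, 322.6 and 303.0 CPM in UAU and 312.5, 314.6 and 321.1 CPM in control.

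The distribution of the 8 mRNAs along the gradient was examined first, within control cells. CD44, TIMP1 and ITGB1 had a larger share of the high than of the low fraction, FN1 and ZEB1 a smaller one, and SNAI2 and MMP14 passed in neither direction. Each library is scaled to its own total, so a fold change compares shares of the 2 fractions and says nothing of amounts of RNA. In this comparison 66% of all 12266 genes tested were called (adjusted p under 0.05, edgeR quasi-likelihood test with Benjamini-Hochberg adjustment, used for every adjusted p here), so 6 of 8 called genes are near the background share.

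ITGB1 in control cells was at 81.2, 80.4 and 71.0 CPM in the low fraction and at 199.4, 176.2 and 176.5 CPM in the high fraction for replicates A, B and C. The groups were far apart, with a log2 fold change of 1.18 (SE 0.09, adjusted p = 1.27e-08). TIMP1 was at 78.6, 52.9 and 59.7 CPM in the low and 149.3, 169.8 and 146.9 CPM in the high fraction (1.22, SE 0.12, adjusted p = 4.83e-07). TIMP1 and ITGB1 both encode proteins made at the endoplasmic reticulum, 1 secreted and 1 membrane-bound. So do CD44, also called higher in the high fraction of control cells, and FN1 and MMP14, which were not called higher there. A link was not tested. CD44 was at 156.1, 115.3 and 133.1 CPM in the low and 254.9, 247.7 and 207.2 CPM in the high fraction (0.75, SE 0.11, adjusted p = 1.81e-05), again without overlap.

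ZEB1 had the opposite distribution, with 119.4, 144.6 and 126.4 CPM in the control low fraction and 65.4, 62.4 and 61.4 CPM in the high fraction. Its log2 fold change was -1.11 (SE 0.09, adjusted p = 3.74e-08). FN1 was also lower in the high fraction (-0.89, SE 0.12, adjusted p = 1.09e-05), from 46.7, 59.2 and 49.1 CPM to 31.7, 29.7 and 25.8 CPM. The 3' end of FN1 lies within the annotated span of ATIC, a gene of purine synthesis on the other strand (177 to 977 counts per library), and the strand setting of the counting is not given in the sources used here, so the FN1 counts are uncertain. VIM had 1462, 873.0 and 1286 CPM in the low and 1017, 1119 and 820.5 CPM in the high fraction, with overlap between the fractions. Its call in control cells (-0.36, SE 0.15, adjusted p = 0.0454) was lost in 7 of 11 alternative analyses. With the deviating low-fraction library B left out it was kept at -0.56 (adjusted p = 1.20e-06), and leaving out any of 4 other libraries in turn ended it.

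In the modified lines the order along the gradient was kept for TIMP1, ITGB1, FN1 and ZEB1: the first pair was higher and the second pair lower in the high fraction of UAU, GAUi and isoswitch cells. The log2 fold changes of TIMP1 were 1.64 in UAU, 1.81 in GAUi and 1.59 in isoswitch cells, and those of ITGB1 were 0.72, 0.87 and 1.11. FN1 had -0.94, -1.17 and -1.28, and ZEB1 -0.93, -1.02 and -0.93, with adjusted p from 1.30e-14 to 2.34e-04 over these 12 values. VIM and CD44 varied more between lines. CD44 had 0.61 in GAUi and 1.08 in isoswitch cells, and 0.11 (SE 0.10, adjusted p = 0.336) in UAU cells. VIM had -0.79 in UAU cells (adjusted p = 2.13e-06), -0.24 in GAUi cells (adjusted p = 0.0339) and 0.34 in isoswitch cells (adjusted p = 0.00568). The GAUi value was lost in 6 of 11 alternatives and the isoswitch value in 2, which were DESeq2 and leaving out the low-fraction replicate A (adjusted p at most 0.0666).

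MMP14 passed as lower in the high fraction of UAU cells (-0.47, adjusted p = 0.00970) and as higher in isoswitch cells (0.49, adjusted p = 0.0223). Leaving out 1 library ended the MMP14 call in UAU cells for the low-fraction replicate C and the high-fraction replicates A and B. In isoswitch cells the low-fraction replicates A and C and the high-fraction replicate C did so. SNAI2 passed in GAUi cells only narrowly (0.45, adjusted p = 0.0448; lost in 5 of 11 alternatives, with adjusted p up to 0.153). Of all genes tested, 67% were called in UAU, 64.8% in GAUi and 70.5% in isoswitch cells, against 6, 7 and 7 of the 8 described here.

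**Figure D2:**
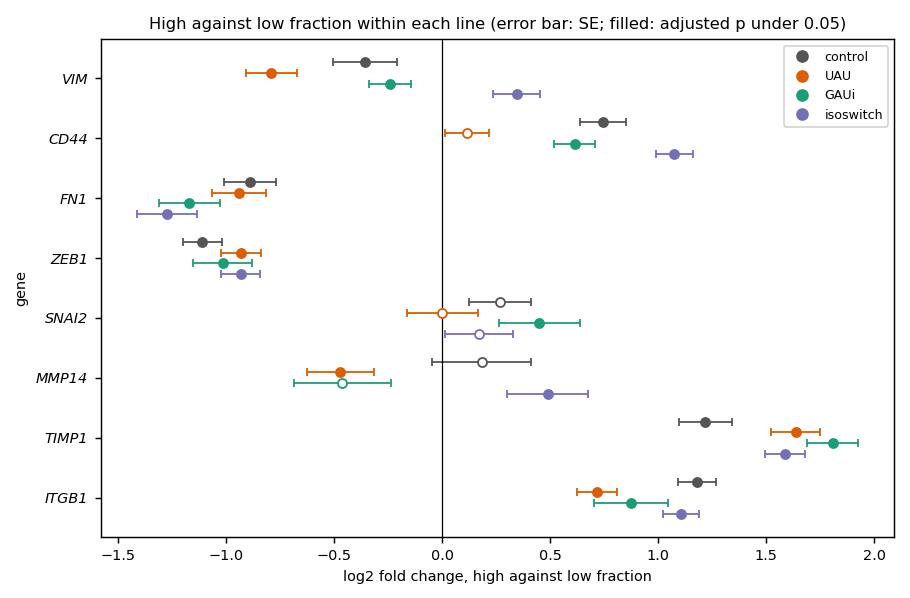
Log2 fold change of the high against the low fraction within each line (horizontal axis) for the 8 tested genes (vertical axis), with the SE as error bar. Filled points passed at an adjusted p under 0.05. TIMP1 and ITGB1 are right of 0 and FN1 and ZEB1 left of 0 in all 4 lines, while VIM runs from -0.79 in UAU to 0.34 in isoswitch cells.

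Messenger RNA levels were compared next in total RNA, where few of these genes differed from control. In UAU cells 0 of 8 passed, in GAUi cells 1 and in isoswitch cells 0, against 0.914%, 10.1% and 4.05% of all 12357 genes tested. At an unadjusted p under 0.05, 2 of 8 stood out in UAU and 1 in isoswitch cells, against 1622 and 1985 of all 12357 genes. DESeq2 called 0 in both, against 201 and 482 of all genes. The 3 comparisons share the same control libraries. TIMP1 in total RNA was at 91.0, 89.9 and 103.3 CPM in control and at 144.2, 114.6 and 109.6 CPM in GAUi cells, without overlap (log2 fold change 0.37, SE 0.10, adjusted p = 0.0268). The call was kept without the deviating GAUi replicate A (0.25, adjusted p = 0.0449) and lost without control replicate A (adjusted p = 0.106) or B (adjusted p = 0.118), and when only these groups were fitted (adjusted p = 0.140).

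In UAU total RNA, TIMP1 was at 111.3, 122.8 and 118.5 CPM, also above every control library, with a log2 fold change of 0.34 that did not pass (adjusted p = 0.141). It passed there when only these groups were fitted (adjusted p = 0.00318). In isoswitch cells TIMP1 had 102.5 ± 5.39 CPM (SD, n = 3) in total RNA.

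VIM in total RNA was at 2887, 2749 and 2943 CPM in control, 2992, 3462 and 3720 CPM in UAU, 2850, 3465 and 3385 CPM in GAUi and 3469, 3369 and 3273 CPM in isoswitch cells. Each UAU and isoswitch library lay above every control library, but the log2 fold changes of 0.28 in UAU (adjusted p = 0.140), 0.17 in GAUi (0.198) and 0.25 in isoswitch cells (adjusted p = 0.109) did not pass. When the fit held only the groups compared, VIM passed in UAU (adjusted p = 0.00707) and isoswitch cells (adjusted p = 2.78e-06). CD44 in total RNA had 316.1 ± 4.47 CPM in control, 310.1 ± 10.9 in UAU, 358.6 ± 23.5 in GAUi and 321.1 ± 8.94 in isoswitch cells (SD, n = 3). The log2 fold change of CD44 in UAU total RNA was 0.00, with a 95% interval of -0.14 to 0.15.

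The transcription factors showed no called difference in total RNA. ZEB1 had 121.8 ± 2.79 CPM in control, 131.8 ± 3.15 in UAU, 139.1 ± 30.3 in GAUi and 132.0 ± 13.4 in isoswitch cells (SD, n = 3). The spread in GAUi cells came from replicate A, with 104.1 CPM against 157.6 and 155.6 CPM. That replicate also held the lowest ITGB1 value, 158.9 CPM against 299.8 and 288.4 CPM in the other pair. Without it, 5 of 8 genes passed in GAUi total RNA: besides TIMP1 these were VIM (0.26, adjusted p = 0.0117), ZEB1 (0.36, adjusted p = 0.00202), ITGB1 (0.25, adjusted p = 0.0188) and FN1 (-0.37, adjusted p = 0.0260). The GAUi total RNA result for these genes thus rests on that 1 library. The all-gene calls there moved as well, from 1248 to between 531 and 2134 when a library was left out. SNAI2 in total RNA ranged from 10.2 to 19.8 CPM and MMP14 from 12.9 to 35.7 CPM, and neither passed in any line.

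ZEB1 and SNAI2 bind the E-box CAGGTG, the only motif searched. The 250 bases before the RefSeq start (GRCh38.p14) were searched on both strands for the 8 genes with an entry. It was found once, in ZEB1, that is in 1 of 8 windows, against 17.5% of 35116 windows of that length. The windows of VIM and CD44, the leading genes, and of ZEB1 are given 5′ to 3′ with the E-box in capitals. They lie on the plus strand at chr10:17227991-17228240 for VIM, chr11:35138921-35139170 for CD44 and chr10:31318167-31318416 for ZEB1. These libraries measured neither promoter activity nor factor binding.
VIM: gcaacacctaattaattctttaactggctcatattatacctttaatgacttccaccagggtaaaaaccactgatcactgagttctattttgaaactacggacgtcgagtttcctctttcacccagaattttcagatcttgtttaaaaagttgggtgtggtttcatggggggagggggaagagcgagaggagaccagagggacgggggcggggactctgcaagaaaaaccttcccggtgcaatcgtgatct
CD44: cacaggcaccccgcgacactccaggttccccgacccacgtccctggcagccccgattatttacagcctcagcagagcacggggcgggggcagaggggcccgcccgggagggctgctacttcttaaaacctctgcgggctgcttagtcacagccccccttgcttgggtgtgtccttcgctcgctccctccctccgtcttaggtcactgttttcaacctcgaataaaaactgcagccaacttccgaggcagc
ZEB1: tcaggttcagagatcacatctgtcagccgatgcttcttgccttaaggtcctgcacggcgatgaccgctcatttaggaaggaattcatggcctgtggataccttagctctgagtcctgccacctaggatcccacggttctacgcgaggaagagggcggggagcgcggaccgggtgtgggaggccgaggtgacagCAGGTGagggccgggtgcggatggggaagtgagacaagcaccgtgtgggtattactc
The genes that follow these windows lie at 17228241 to 17237593 of chromosome 10 for VIM, 35139171 to 35232402 of chromosome 11 for CD44 and 31318417 to 31529804 of chromosome 10 for ZEB1. Antisense RNAs overlap the starts of VIM (VIM-AS1, 13 to 65 counts per library) and ZEB1 (ZEB1-AS1, 2 to 19 counts), few beside the counts of the genes themselves. TIMP1 lies within SYN1 (9 to 43 counts), a neuronal gene.

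In the low fraction 0 of 8 genes passed in UAU, 1 in GAUi and 0 in isoswitch cells, against 0.691%, 3.4% and 2.58% of all 12445 genes. An unadjusted p under 0.05 was reached by 3 of 8 in UAU and 0 in isoswitch cells, against 1699 and 1871 of all 12445 genes. DESeq2 called 0 in both, against 209 and 384 of all genes. The called gene was again TIMP1 in GAUi cells, here lower: 39.9, 45.5 and 45.7 CPM against 78.6, 52.9 and 59.7 CPM in control (log2 fold change -0.57, SE 0.15, adjusted p = 0.0361). All 3 GAUi libraries lay under the control libraries. The call was lost in 7 of 11 alternatives, with adjusted p up to 0.167, and leaving out the control replicates A or C or any GAUi replicate ended it. VIM in the GAUi low fraction had 936.8, 875.4 and 968.3 CPM, and its log2 fold change of -0.41 (adjusted p = 0.236) became -0.60 (adjusted p = 0.0134) without the deviating control replicate B. CD44 had 134.8 ± 20.4 CPM in control, 137.0 ± 7.96 in UAU, 130.8 ± 3.48 in GAUi and 126.1 ± 13.1 in isoswitch cells (SD, n = 3), with overlapping replicates. The log2 fold changes of FN1, ZEB1, SNAI2, MMP14 and ITGB1 ran from -0.09 to 0.57 over the 3 lines, the highest being MMP14 in UAU cells (adjusted p = 0.213).

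The high fraction held most of the differences between lines. CD44, VIM and ITGB1 were lower in UAU cells than in control, VIM was lower in GAUi cells, and in isoswitch cells VIM was higher and FN1 lower. These are 3, 1 and 2 of 8 tested genes, against 28.7%, 10.1% and 11% of all 11979 genes, so the counts lie near the background share. The median log2 fold change of the 8 genes was -0.16 in UAU, -0.19 in GAUi and 0.20 in isoswitch cells, where that of all genes was 0.00 in each.

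CD44 in the high fraction was at 254.9, 247.7 and 207.2 CPM in control and at 133.4, 127.0 and 172.1 CPM in UAU cells. No UAU library reached a control library, and the level was 1.62-fold lower (log2 fold change -0.69, SE 0.10, adjusted p = 2.35e-05). GAUi cells had 189.3, 212.5 and 199.0 CPM (-0.24, SE 0.10, adjusted p = 0.135), and isoswitch cells 268.3, 251.0 and 301.1 CPM (0.20, SE 0.10, adjusted p = 0.222). Both of these overlapped control.

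VIM was at 1017, 1119 and 820.5 CPM in the control high fraction and at 685.3, 722.9 and 703.3 CPM in UAU cells, where it was 1.38-fold lower without overlap (log2 fold change -0.47, SE 0.10, adjusted p = 6.54e-04). Isoswitch cells had 1516, 1197 and 1305 CPM, all above control, a 1.35-fold higher level (0.43, SE 0.09, adjusted p = 0.00302). These calls were kept in 11 of 11 alternatives each. GAUi cells had 820.8, 799.0 and 734.0 CPM, of which the highest exceeded the lowest control library. Their log2 fold change of -0.33 (SE 0.10, adjusted p = 0.0283) was lost in 5 of 11 alternatives: only leaving out control replicate C kept it among the 6 that left out a library (adjusted p of the others 0.0597 to 0.196).

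ITGB1 had 199.4, 176.2 and 176.5 CPM in the control high fraction and 113.1, 128.6 and 129.6 CPM in UAU cells. It was 1.47-fold lower there, without overlap (log2 fold change -0.56, SE 0.09, adjusted p = 3.77e-05). The 3 GAUi libraries lay close together at 160.9, 160.2 and 160.6 CPM, under all control libraries, but the difference did not pass (-0.20, SE 0.08, adjusted p = 0.146). Isoswitch cells had 201.8, 176.0 and 205.1 CPM, overlapping control (0.07, SE 0.08, adjusted p = 0.676).

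Among the matrix genes, FN1 had 31.7, 29.7 and 25.8 CPM in the control high fraction and 16.96, 24.3 and 21.9 CPM in isoswitch cells, 1.40-fold lower and without overlap (log2 fold change -0.49, SE 0.13, adjusted p = 0.0119). Leaving out control replicate A (adjusted p = 0.0814) or isoswitch replicate A (adjusted p = 0.130) ended that call. MMP14 was at 17.5, 13.9 and 15.98 CPM in control, 12.6, 12.5 and 16.8 CPM in UAU, 13.6, 12.4 and 12.1 CPM in GAUi and 17.98, 19.1 and 23.3 CPM in isoswitch cells. Its isoswitch libraries were above and its GAUi libraries below control, yet neither 0.33 (adjusted p = 0.143) nor -0.31 (adjusted p = 0.203) passed. TIMP1 in the high fraction differed little, with 155.3 ± 12.6 CPM in control, 151.2 ± 20.5 in UAU, 153.3 ± 7.26 in GAUi and 164.5 ± 11.6 in isoswitch cells (SD, n = 3).

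ZEB1 had 65.4, 62.4 and 61.4 CPM in the control high fraction, and all 9 libraries of the modified lines lay above, at 67.6 to 80.3 CPM. The log2 fold changes were 0.22 in UAU (adjusted p = 0.0635), 0.17 in GAUi (adjusted p = 0.234) and 0.22 in isoswitch cells (adjusted p = 0.110), so none passed with all libraries. Without UAU replicate C, that of UAU cells was 0.25 and passed (adjusted p = 0.0445). SNAI2 had 15.97 ± 0.918 CPM in control, 14.3 ± 2.03 in UAU, 20.2 ± 1.41 in GAUi and 18.6 ± 3.11 in isoswitch cells (SD, n = 3), also without a call against control.

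**Figure D3:**
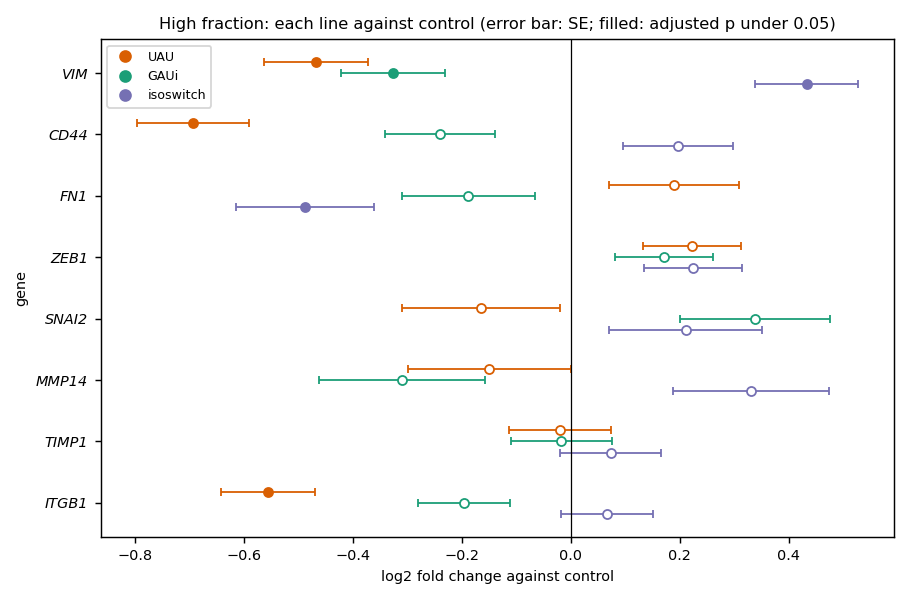
Log2 fold change against control in the high fraction (horizontal axis) for the 8 tested genes in UAU, GAUi and isoswitch cells, with the SE as error bar. Filled points passed at an adjusted p under 0.05. CD44, VIM and ITGB1 lie at -0.69, -0.47 and -0.56 in UAU cells, while VIM lies at 0.43 and FN1 at -0.49 in isoswitch cells.

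RNA of the light part of the gradient also moved with the lines. The 21 RNAs with SNHG symbols, small nucleolar RNA hosts, summed in the high fraction to 727.0 ± 20.7 CPM in control, 839.2 ± 91.4 in UAU, 845.1 ± 53.0 in GAUi and 572.4 ± 73.5 in isoswitch cells (SD, n = 3). In the low fraction their sums averaged 7855 to 9071 CPM by line. In the high fraction the GAUi libraries lay above and the isoswitch libraries below control, while the UAU libraries (739.2 to 918.2 CPM) overlapped control (704.2 to 744.6 CPM). Their part in the differences of VIM, CD44 and ITGB1 in the high fraction was not tested.

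The high fraction was then set against the other RNA of the same line. In the ratio of high to low fraction, CD44 and ITGB1 passed in UAU cells, 2 of 8 genes against 6.53% of all 12749. The mean CPM of CD44 in the high fraction was 1.76 times that in the low fraction in control cells, 1.05 times in UAU, 1.53 times in GAUi and 2.17 times in isoswitch cells. The log2 change of this ratio in UAU was -0.69 (SE 0.16, adjusted p = 0.00887), and -0.59 to -0.84 without any 1 library. With only the 4 groups compared in the fit, its adjusted p was 0.0505. ITGB1 had a ratio of 2.37 in control and 1.60 in UAU cells, a log2 change of -0.52 (SE 0.13, adjusted p = 0.0126). Fitting only these groups, or leaving out the high-fraction replicate A of control (adjusted p = 0.0694) or of UAU (adjusted p = 0.0536), ended that call.

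VIM had a high-to-low ratio of 0.817 in control, 0.563 in UAU, 0.847 in GAUi and 1.31 in isoswitch cells. The log2 changes against control were -0.49 in UAU (95% interval -0.91 to -0.07, adjusted p = 0.187) and 0.71 in isoswitch cells (0.29 to 1.14, adjusted p = 0.162), and neither passed. Without the deviating control low-fraction replicate B the isoswitch change was 0.89 (adjusted p = 0.00913), and without a filter on low counts VIM passed in both UAU (adjusted p = 0.0131) and isoswitch cells (adjusted p = 2.58e-04). The ratio of TIMP1 differed from control by 0.56 in GAUi cells (adjusted p = 0.176), and by 0.67 (adjusted p = 0.0367) without that control library. In UAU and isoswitch cells it differed by 0.36 and 0.38. MMP14 had -0.71 (adjusted p = 0.0951), -0.67 and 0.32, and FN1, ZEB1 and SNAI2 lay between -0.37 and 0.19. Without the UAU high-fraction replicate C, MMP14 passed in UAU cells (-0.87, adjusted p = 0.0391). In the main analysis, no gene of the 8 passed in GAUi or isoswitch cells, where 0.196% and 0.00784% of all genes did. An unadjusted p under 0.05 was reached by 3 of 8 in each of these lines, against 1516 and 1602 of all 12749 genes. DESeq2 called 1 in GAUi and 0 in isoswitch cells, against 295 and 157 of all genes.

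When the high fraction was divided by total RNA instead, VIM and CD44 passed in UAU cells, 2 of 8 genes against 7.32% of all 12540. The ratio of VIM in the high fraction to VIM in total RNA was 0.345 in control and 0.208 in UAU cells (log2 change -0.72, SE 0.14, adjusted p = 0.00200). That of CD44 was 0.749 and 0.465 (-0.67, SE 0.13, adjusted p = 0.00314). Both calls were kept in 17 of 17 alternatives. ITGB1 had -0.43 (adjusted p = 0.146) by this ratio. In GAUi cells the changes were -0.50 for VIM (adjusted p = 0.0676) and -0.42 for CD44 (adjusted p = 0.112), and in isoswitch cells 0.20 and 0.17 (adjusted p = 0.991 each). In the main analysis, none of the 8 passed in GAUi or isoswitch cells, against 0.718% and 0% of all genes. Without the deviating GAUi total RNA replicate A, VIM (-0.59, adjusted p = 0.0164) and ITGB1 (-0.44 in place of -0.20, adjusted p = 0.0296) passed in GAUi cells. VIM passed there also without control high-fraction replicate C (-0.61, adjusted p = 0.0257). The other 5 genes had changes from -0.39 to 0.32 over the 3 lines. An unadjusted p under 0.05 was reached by 3 of 8 in GAUi and 0 in isoswitch cells, against 1853 and 648 of all 12540 genes. DESeq2 called 2 and 0, against 262 and 0 of all genes.

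The modified lines were compared with each other in the high fraction. The order of the 4 lines was the same for VIM, CD44, ITGB1 and TIMP1: isoswitch highest, then control, GAUi and UAU. The highest mean was 1.90 times the lowest for VIM, 1.90 for CD44 and 1.57 for ITGB1. For TIMP1 it was only 1.09 times the lowest, and no neighbours differed (adjusted p from 0.681 to 0.988). Neighbours in that order did not all differ beyond their spread. For CD44 and ITGB1 only GAUi and UAU, the lowest pair, differed as neighbours (adjusted p = 0.00326 and 0.00479), and for VIM isoswitch from control and control from GAUi.

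Between isoswitch and UAU cells, which differ by the GAU interference, 6 of 8 genes passed, against 41.6% of all genes. VIM had a log2 difference of 0.90 (SE 0.10, adjusted p = 5.60e-08), CD44 0.89 (SE 0.10, adjusted p = 1.83e-07) and ITGB1 0.62 (SE 0.09, adjusted p = 2.03e-06), all higher in isoswitch cells in 3 of 3 libraries against 3. MMP14 (0.48, adjusted p = 0.0102) and SNAI2 (0.38, adjusted p = 0.0384) were higher too, and FN1 was lower (-0.68, adjusted p = 9.94e-05). The SNAI2 call was lost in 5 of 11 alternatives, among them leaving out UAU replicate A or C or isoswitch replicate A. That of MMP14 was lost without UAU replicate A or isoswitch replicate C.

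Between isoswitch and GAUi cells, which differ by the UAU overexpression, 4 of 8 genes passed, against 15.8% of all genes. VIM (0.76, adjusted p = 1.81e-05), MMP14 (0.64, adjusted p = 0.00462), CD44 (0.44, adjusted p = 0.00437) and ITGB1 (0.26, adjusted p = 0.0347) were higher in isoswitch cells. The ITGB1 call was lost when any GAUi replicate, or isoswitch replicate A or C, was left out. Between GAUi and UAU cells 4 of 8 passed, against 17.7%: CD44 (0.45), ITGB1 (0.36) and SNAI2 (0.50) were higher and FN1 (-0.38, adjusted p = 0.0331) lower in GAUi cells. FN1 did not pass there when any of the 6 libraries was left out, and SNAI2 did not without UAU replicate C or GAUi replicate B. In total RNA and in the low fraction, 0 of 8 genes passed between any pair of modified lines in the main analysis. Without a filter on low counts, MMP14 passed in total RNA for GAUi against UAU (adjusted p = 3.19e-04) and isoswitch against GAUi (0.0167). In the low fraction VIM then passed for GAUi against UAU (0.00104), and FN1 (0.0404) and MMP14 (0.0428) for isoswitch against UAU. With only the groups compared, VIM passed for GAUi against UAU low fraction (0.0242) and TIMP1 for isoswitch against UAU total RNA (0.0330). Without the deviating GAUi total RNA replicate A, ZEB1 (0.22, adjusted p = 0.0443), ITGB1 (0.34, adjusted p = 0.00110) and MMP14 (-0.90, adjusted p = 0.00443) passed for GAUi against UAU total RNA. MMP14 (0.82, adjusted p = 0.0316) and ITGB1 (-0.31, adjusted p = 0.0128) then passed for isoswitch against GAUi. The all-gene shares in the main analysis were 14.8% and 3.95% for GAUi against UAU, 3.42% and 4.25% for isoswitch against UAU, and 0.113% and 0% for isoswitch against GAUi.

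The effect of UAU overexpression thus could be measured in cells with eGFP interference (UAU against control) and with GAU interference (isoswitch against GAUi), and the difference between both effects was tested as an interaction. In the high fraction 5 of 8 genes passed, against 35.7% of all 11979 genes. VIM went from -0.47 in eGFP cells to 0.76 in GAU interference cells, an interaction of 1.23 on the log2 scale (SE 0.14, adjusted p = 2.53e-07). CD44 went from -0.69 to 0.44 (interaction 1.13, SE 0.14, adjusted p = 1.53e-06) and ITGB1 from -0.56 to 0.26 (0.82, SE 0.12, adjusted p = 9.53e-06). For these 3 genes the sign of the effect was opposite in both kinds of cells. MMP14 had -0.15 and 0.64 (0.79, SE 0.21, adjusted p = 0.00460), and FN1 0.19 and -0.30 (-0.49, SE 0.18, adjusted p = 0.0313). The FN1 interaction was lost in 7 of 16 alternatives, DESeq2 and leaving out control B or C, UAU C, GAUi A or C or isoswitch A, and those of VIM, CD44, ITGB1 and MMP14 were kept in all 16.

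ZEB1 (interaction -0.17), SNAI2 (0.04) and TIMP1 (0.11) did not pass in the high fraction, with 95% intervals of -0.42 to 0.08, -0.36 to 0.43 and -0.15 to 0.37. In total RNA and in the low fraction the interaction passed for 0 of 8 genes in the main analysis, against 0.0243% and 0.233% of all genes. VIM there had -0.19 in total RNA and 0.13 in the low fraction, and CD44 -0.14 and -0.04. Of the 8 genes, TIMP1 in total RNA (-0.58) and TIMP1 (0.67), MMP14 (-0.90) and FN1 (-0.52) in the low fraction had an unadjusted p under 0.05. Of all genes, 1239 in total RNA and 1468 in the low fraction did. DESeq2 called TIMP1 in total RNA (adjusted p = 0.0490), among 38 genes in all. Without a filter on low counts, edgeR called TIMP1 in total RNA (adjusted p = 0.0165) and TIMP1 (0.0193) and MMP14 (0.0202) in the low fraction. Without the deviating control low-fraction replicate B, TIMP1 passed in the low fraction (0.79, adjusted p = 0.0267).

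**Figure D4:**
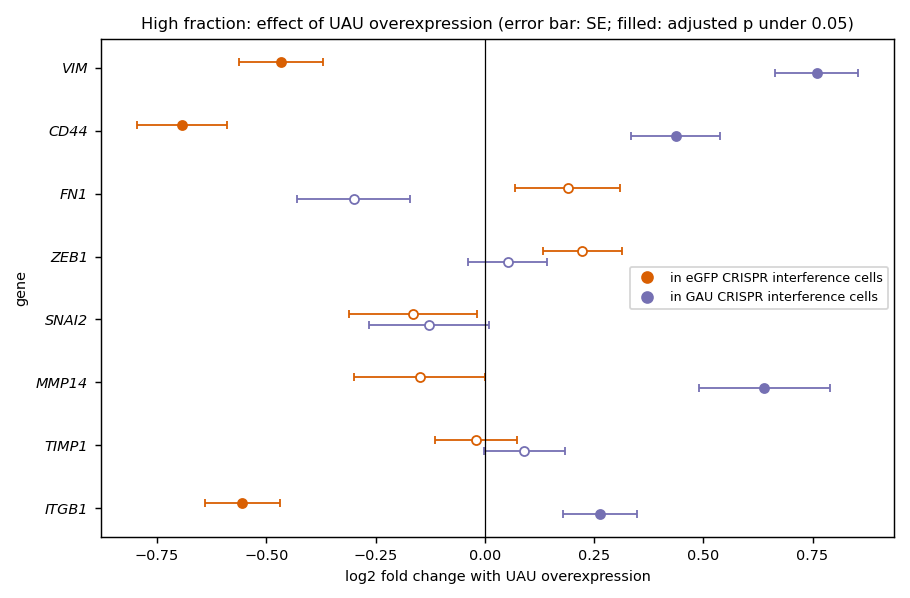
Log2 fold change with UAU overexpression in the high fraction (horizontal axis) for the 8 tested genes, in cells with eGFP interference (UAU against control) and with GAU interference (isoswitch against GAUi), with the SE as error bar. Filled points passed at an adjusted p under 0.05. VIM, CD44 and ITGB1 lie left of 0 in the first (-0.47, -0.69 and -0.56) and right of 0 in the second (0.76, 0.44 and 0.26).

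Over all 36 libraries, with each fraction centred on its mean, the log2 levels of VIM and CD44 had a Pearson r of 0.735, and those of VIM and FN1 of -0.599. Of 4919 genes with an average log2 CPM of 5 or more, VDAC1 (0.892), GLUD1 (0.866) and GRN (0.861) followed VIM most closely. HNRNPK (0.916), ATP5B (0.907) and DYNC1LI1 (0.907) followed CD44. These are descriptions over libraries that share lines, fractions and scaling.

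Other genes of the same pathways were taken from 14 lists that leave out the 9 genes. Their counts are to be read against the shares of all genes called, 28.7% in the UAU, 10.1% in the GAUi and 11% in the isoswitch high fraction, and 0.914%, 10.1% and 4.05% in total RNA. For the UAU high-to-low ratio the share was 6.53%. Among transcription factors of the transition, 5 of 11 had enough counts. TCF3, an E protein, was higher in the UAU high fraction (0.27, adjusted p = 0.0131). Of 13 tested epithelial markers, 1 was higher and 4 were lower in the UAU high fraction, among them the keratins KRT18 (-0.64) and KRT19 (-0.49), with a list median of -0.09 beside 0.00 for all genes. In isoswitch cells 2 were higher, CLDN7 (0.41) and KRT8 (0.43), and 1 lower.

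Of 14 tested mesenchymal markers, 3 were higher and 3 lower in the UAU high fraction, 1 and 3 in GAUi, and 2 and 2 in isoswitch cells. CALD1, the actin-binding caldesmon, was lower in all of these comparisons, with -0.70 in UAU, -0.95 in GAUi and -0.53 in isoswitch cells. Its level in the high fraction was 135.3 ± 8.72 CPM in control and 69.8 ± 6.48 in GAUi cells (SD, n = 3). CTGF, a secreted matricellular protein, was higher in GAUi total RNA (0.54), isoswitch total RNA (0.55) and the isoswitch high fraction (0.64). In the UAU high-to-low ratio, where 6.53% of all 12749 genes were called, 2 markers were higher and 2 lower. The higher pair, TPM1 (0.45), a tropomyosin, and LGALS1 (0.53), a galectin, had the smallest p and so were named.

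Matrix proteins were split as well. Of 26 tested in total RNA, 4 were higher and 3 lower in GAUi cells, 1 and 1 in isoswitch cells and 0 in UAU cells. The laminin subunit LAMB1 was lower in GAUi (-0.85) and isoswitch (-0.80) total RNA, and LAMB3 higher (0.98 and 0.71). LAMB1 had 65.7 ± 4.6 CPM in control total RNA, 36.6 ± 9.71 in GAUi and 37.3 ± 2.93 in isoswitch cells (SD, n = 3). In the high fraction LAMB1 was at -0.87 in both lines. Of 17 tested matrix proteases and inhibitors, 3 were higher and 3 lower in the UAU high fraction, with the sheddase ADAM10 at -0.78 and ADAM19 at 0.47, and 3 were lower and 0 higher in GAUi cells, with ADAM8 at -0.63 and ADAM10 at -0.53.

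ITGB1 pairs with alpha subunits and signals through an adhesion complex. Of 11 tested integrin subunits, 2 were higher and 2 lower in the UAU high fraction, where ITGB5 had 0.33 and ITGA6 -0.33. In isoswitch cells 1 was higher, ITGA3 (0.41), and 3 lower, among them ITGB2 (-0.44). Of 24 tested genes of the integrin adhesion complex, 2 were higher and 5 lower in the UAU high fraction, with the adaptors BCAR1 (-0.43) and LIMS1 (-0.45) among the lower. In isoswitch cells 2 were higher, RSU1 (0.40) and the actin crosslinker FLNA (0.26), and 0 lower. Of 10 tested CD44 and hyaluronan partners, 0 were higher and 2 lower in the UAU high fraction: RDX (-0.45) and EZR (-0.36), radixin and ezrin, which link CD44 to actin. In GAUi cells 0 of these 10 passed, and in isoswitch cells 1 was higher and HYAL2, a hyaluronidase, was lower (-0.43). Of 6 tested other non-keratin intermediate filament genes, 1 was higher and LMNA, the lamin A gene, lower in UAU (-0.34), and LMNA was lower in GAUi cells (-0.49).

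Transforming growth factor beta, a known inducer of the transition, was represented by 27 tested pathway genes. In the UAU high fraction 3 were higher, among them PMEPA1 (0.43), and TGFB2, which encodes a ligand, was lower (-0.77). TGFB2 was also lower in UAU total RNA (-0.71), with 50.4 ± 5.05 CPM against 84.2 ± 6.01 in control (SD, n = 3). ID1 and ID3, inhibitors of DNA binding, were lower in isoswitch total RNA (-0.46 and -0.59) and high fraction (-0.53 and -0.63). ID3 was also lower in UAU total RNA (-0.83) and ID1 in GAUi total RNA (-0.50). In the high-to-low ratio 0 of the 27 passed in UAU, GAUi or isoswitch cells by edgeR. In GAUi and isoswitch cells no gene of any of the 14 lists passed for that ratio, beside 25 and 1 of 12749 genes in all.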

How the data were processed

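Polyadenylated RNA from 4 MDA-MB-231 lines and 3 fractions (36 libraries, 12 groups of 3, grouped by the labels) was analysed. The deposited files hold unnormalized whole-number counts for each symbol. Per the submitters' processing notes, STAR, featureCounts, DESeq2 and hg38 were used. Their versions, the annotation and the strand setting are not stated there.

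Counts were filtered with filterByExpr, scaled by TMM and tested with edgeR 4.0.16 (R 4.3.3, glmQLFit and glmQLFTest) over all genes, and p-values were adjusted by Benjamini-Hochberg. Calls needed an adjusted p under 0.05. SE is the log2 fold change over the square root of F, and intervals (95%) are 1.96 SE. Fits held 12 libraries per fraction, 24 per ratio of fractions and 9 per comparison of fractions within a line. CPM use TMM over 36 libraries. The procedure was tested on simulated data. Positions and promoters come from RefSeq (GRCh38.p14).

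The rule took all 9 genes in each comparison, of which those without a call are partly given as ranges, and from each list up to 2 called genes (smallest p, mean log2 CPM 3 or more) for total RNA, the high fraction and the ratio of high to low. Genes named for likeness are the 3 with the highest r. Members and lists were chosen with earlier results of these data known. DESeq2 1.42.0, RLE factors, no filter, a replicate block, fits of the compared groups alone and leaving out each library were alternatives. The isoleucine content of the proteins was not analysed here. Of the list genes taken by the naming rule, 1 is not reported here.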

Additional observations from a re-analysis of the deposited data

Results flagged for a closer look

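For 5 genes the effect of UAU overexpression in the high fraction differed between cells with eGFP interference and cells with GAU interference, by the edgeR interaction test over 12 libraries. The interaction was 1.23 for VIM (adjusted p = 2.53e-07), 1.13 for CD44 (adjusted p = 1.53e-06), 0.82 for ITGB1 (0.818 before rounding, adjusted p = 9.53e-06), 0.79 for MMP14 (0.789, adjusted p = 0.00460) and -0.49 for FN1 (adjusted p = 0.0313), on the log2 scale. The FN1 interaction was lost in 7 of 16 alternatives, DESeq2 among them, and the FN1 counts are uncertain because of the overlap with ATIC. Of all genes tested, 35.7% were called in this interaction. Small nucleolar RNA host RNAs in the high fraction summed to 839.2 CPM in UAU and 572.4 CPM in isoswitch cells, and their part in these differences was not tested.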

How the results depend on the processing

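Counts below are of the 8 tested genes. Of 57 calls, 39 were kept in every alternative run. Over all alternatives 601 of 676 kept the call, 75 lost it and 0 reversed the direction. Without a filter on low counts, the calls against control became 1 in UAU total RNA (0 in the main analysis), 1 in isoswitch total RNA (0), 1 in the UAU low fraction (0), 2 in the GAUi low fraction (1), 1 for the isoswitch high-to-low ratio (0), 1 for the GAUi high-to-total ratio (0) and 8 for the interactions of the 3 fractions (5). All-gene calls in these comparisons then went from 113 to 236, 500 to 658, 86 to 339, 423 to 743, 1 to 215 and 90 to 278. For the interaction they went from 3 to 95 in total RNA, 29 to 251 in the low and 4276 to 4188 in the high fraction. With only the groups compared in the fit, they became 2 in UAU (0), 0 in GAUi (1) and 1 in isoswitch total RNA (0), 0 in the GAUi low fraction (1), 2 in the GAUi high fraction (1) and 0 for the UAU high-to-low ratio (2). DESeq2 gave 1 for the GAUi high-to-low ratio (0) and 2 for the GAUi high-to-total ratio (0). All-gene calls with only the groups compared were 271 in the GAUi low fraction (423) and 1691 in the GAUi high fraction (1215). By DESeq2 they were 295 for the GAUi high-to-low ratio (25) and 262 for the GAUi high-to-total ratio (90). The cause was not tested.

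Leaving out each library in turn gave 0 to 0 calls in UAU, 0 to 5 in GAUi and 0 to 0 in isoswitch total RNA, 0 to 0, 0 to 2 and 0 to 0 in the low fraction, and 3 to 4, 0 to 1 and 1 to 2 in the high fraction. It gave 1 to 3, 0 to 1 and 0 to 1 for the high-to-low ratio and 2 to 2, 0 to 2 and 0 to 0 for the high-to-total ratio. It gave 5 to 6 for the gradient in control cells, 18 to 20 in the modified lines, 11 to 19 between modified lines and 4 to 6 for the interactions.

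Samples that share a letter did not deviate together: in no comparison did all 3 letters correlate above 0.1. With the letter as a replicate block, the GAUi low fraction had 0 calls in place of 1, and all-gene calls in the UAU low fraction were 22 in place of 86.

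The all-gene counts moved by over 1.5 times elsewhere too. For UAU total RNA they were 113, and 236 without a filter, 201 by DESeq2, 916 with only the groups compared and 25 to 43 leaving out a library. For GAUi total RNA they were 1248, 329 with only the groups compared and 531 to 2134 leaving out a library. For isoswitch total RNA they were 500, 1898 with only the groups compared and 194 to 268 leaving out a library. In the high fraction, 1215 in GAUi cells became 563 to 980 and 1322 in isoswitch cells 651 to 1333 leaving out a library. In the low fraction, leaving out a library gave 6 to 209 in UAU (86), 177 to 760 in GAUi (423) and 127 to 675 in isoswitch cells (321), and for UAU the count was 0 with only the groups compared, 339 without a filter and 209 by DESeq2. For the UAU high-to-low ratio they were 833, and 226 with only the groups compared. For the high-to-low ratio of GAUi, 25 became 295 and for isoswitch 1 became 157 by DESeq2. SPARC had at most 7 counts per library, and MMP14 and SNAI2 had the lowest counts of the tested genes. MMP14 also varied between replicates, from 16.1 to 33.8 CPM in control total RNA. Whether depth or this spread limits small changes was not tested.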
